A study of Mus musculus with 10 samples.

Results

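Klrd1, Klrk1, Cd7 and Slamf7 are 4 genes of surface receptors best known from natural killer (NK) cells and cytotoxic T cells. They were chosen, as 4 of the 32285 genes in the files, for their level in a population of mouse blood cells called double-negative (DN) cells. Their levels in DN cells are therefore a description with no test, and the 4 are tested only in contrasts that leave DN cells out. Klrd1 encodes CD94, a C-type lectin that pairs with NKG2-type chains into receptors that read Qa-1, a non-classical MHC class I molecule. Klrk1 encodes NKG2D, an activating lectin that binds stress-induced MHC class I-like ligands and signals through the adaptors DAP10 and DAP12. Cd7 encodes an immunoglobulin-family receptor of T, NK and early lymphoid cells. Slamf7 encodes CRACC, a receptor of the SLAM family that binds itself on neighbouring cells and is also found on B cells, macrophages and dendritic cells.

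The study sequenced single cells of mouse blood and of the Peyer's patch, a lymphoid organ of the gut wall, in 2 droplet datasets with hashtag antibodies that mark each sorted population. All mice were C57BL/6Rj females, whose age the labels do not give. Blood donors had an intravenous dose of clodronate liposomes, an agent that kills phagocytes, 9 days before collection, and the patches came from untreated mice. Blood populations were all CD115hi and comprised DN cells (Ly6C- CD43-), CD43+ monocytes and Ly6C+ monocytes, so no blood population here is from an untreated mouse. Patch populations were lysozyme-expressing dendritic cells (LysoDCs, a monocyte-derived type; follicular, immature, intermediate and mature subsets) and immature and maturing cDC2s, a type of conventional dendritic cell. Dataset 1 pooled 20 blood and 30 patch donors and held 9 populations in 1 library. Dataset 2 pooled 18 blood and 20 patch donors and held 4 libraries, with no cDC2s, with LysoDCs not split into subsets here, and with CCR2+ and CCR2- DN cells under 1 hashtag.

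After filtering, 7878 cells of dataset 1 and 7470 of dataset 2 were used, 2118 and 4971 of them DN cells. Summed UMIs (unique molecular identifiers, each standing for 1 captured RNA molecule) per population were between 2043004 and 28778760. The DN cells of dataset 1 had a median of 4494 UMIs, against 2969.5 in its CD43+ monocytes and 4410 in its Ly6C+ monocytes. In dataset 2 the medians were 5224 in DN cells, 2312 in CD43+ monocytes and 5920 in Ly6C+ monocytes. Levels are CPM, the UMIs of a gene per M (10 to the power 6) UMIs of a summed population, with exact 95% Poisson intervals in parentheses. Such intervals, and the binomial ones of shares of cells, cover counting error only and say nothing of the spread between mice, since each population is 1 pool of mice per dataset. In dataset 2 the blood populations were sequenced in separate libraries, so population and library cannot be told apart there.

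Klrd1 lies at chr6:129591782-129598775 on the plus strand (GRCm38, GENCODE M21; ENSMUSG00000030165), inside the NK gene complex. Klrk1 lies next to it at chr6:129610323-129623864 on the minus strand (ENSMUSG00000030149), with 11547 bases and 0 annotated genes in between. Klre1, another lectin gene of the complex, ends 5954 bases before Klrd1, and Klrc3 begins 15199 bases beyond Klrk1. Cd7 lies at chr11:121036747-121039418 on the minus strand (ENSMUSG00000025163), inside the longer antisense gene Gm11775, which had 0 UMIs in dataset 1 and 1 UMI in dataset 2 over all barcodes. Slamf7 lies at chr1:171632403-171653035 on the minus strand (ENSMUSG00000038179), and the antisense gene Gm37787 inside it had 58 UMIs in dataset 1 and 83 in dataset 2. The promoters of Klrk1 and Slamf7 are shown because these 2 of the 4 genes have one in the RefSeq set used (GRCm38.p6), as the 250 bases upstream of the start, read 5′ to 3′ on the minus strand. The Klrk1 window is chr6:129623865-129624114 and the Slamf7 window is chr1:171649000-171649249, the second of which starts from a RefSeq start inside the span annotated above. Capitals mark the matches to the motifs searched.
Klrk1: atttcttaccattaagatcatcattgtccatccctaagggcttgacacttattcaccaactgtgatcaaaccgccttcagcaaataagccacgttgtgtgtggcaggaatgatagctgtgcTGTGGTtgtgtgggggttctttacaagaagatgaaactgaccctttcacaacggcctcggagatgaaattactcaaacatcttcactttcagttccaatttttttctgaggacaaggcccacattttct
Slamf7: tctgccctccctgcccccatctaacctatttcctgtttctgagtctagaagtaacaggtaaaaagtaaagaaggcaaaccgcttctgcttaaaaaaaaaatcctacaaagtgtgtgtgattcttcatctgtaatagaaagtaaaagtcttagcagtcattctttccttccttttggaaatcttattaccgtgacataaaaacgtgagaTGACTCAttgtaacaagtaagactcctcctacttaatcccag

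Both strands of each window were searched for 5 motifs, chosen after the levels were known. The Runx motif TGTGGT had 1 match in Klrk1, at 129 to 124 bases before the start, and 0 in Slamf7, and 14.0% of 32536 promoter windows of this length held it. The AP-1 motif TGANTCA, which reads the same on both strands, had 1 match in Slamf7, at 42 to 36 bases before the start, and 0 in Klrk1, against 6.73% of windows. The T-box motif GGTGTG (16.3% of windows), the PU.1 motif GAGGAA (23.4%) and the IRF motif, GAAA and again GAAA with any 2 bases between (2.98%), had 0 matches in both. A match is a run of letters and not a measured binding site.

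DN cells carried RNA of all 4 receptor genes, and in each dataset the summed level of each gene was higher in DN cells than in either monocyte population. Klrd1 had 107 CPM (101–114) in DN cells of dataset 1, against 2.42 CPM in CD43+ monocytes and 1.22 CPM in Ly6C+ monocytes. In dataset 2 it had 344 CPM (337–350) in DN cells, 5.78 CPM in CD43+ monocytes and 1.35 CPM in Ly6C+ monocytes. The CD43+ value of dataset 2 came from 15 UMIs in 6 cells. Klrd1 was thus near the counting floor in both monocyte populations, and the DN level was 44.4 and 59.5 times the CD43+ level and 87.7 and 255 times the Ly6C+ level in datasets 1 and 2.

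Klrk1 also had a measurable level in Ly6C+ monocytes. It had 96.3 CPM (90.2–103) in DN cells of dataset 1, 3.62 CPM in CD43+ monocytes and 19.1 CPM (15.1–23.8) in Ly6C+ monocytes. In dataset 2 the values were 128 CPM (124–133) in DN cells, 2.31 CPM in CD43+ monocytes and 8.27 CPM in Ly6C+ monocytes. The ratio of DN cells to Ly6C+ monocytes was 5.04 in dataset 1 and 15.5 in dataset 2.

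Cd7 had 87.2 CPM (81.4–93.3) in DN cells of dataset 1, 2.42 CPM in CD43+ monocytes and 2.20 CPM in Ly6C+ monocytes. In dataset 2 it had 55.1 CPM (52.4–57.9) in DN cells, 1.16 CPM in CD43+ monocytes and 1.35 CPM in Ly6C+ monocytes. The ratios of DN cells to monocytes for Cd7 were between 36.1 and 47.7 over the 2 monocyte populations and both datasets. The monocyte levels of Cd7 came from 3 to 9 UMIs per sum, near the counting floor. The intervals of the ratios lay between 16.3 and 232, so their size is loosely set. Slamf7 had 346 CPM (335–358) in DN cells of dataset 1, 14.9 CPM in CD43+ monocytes and 45.6 CPM in Ly6C+ monocytes. In dataset 2 it had 413 CPM (405–420) in DN cells, 8.47 CPM in CD43+ monocytes and 35.2 CPM in Ly6C+ monocytes. Slamf7 was detected in every population, and its DN level was 7.60 and 11.7 times that of Ly6C+ monocytes and 23.2 and 48.7 times that of CD43+ monocytes.

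**Figure D1:**
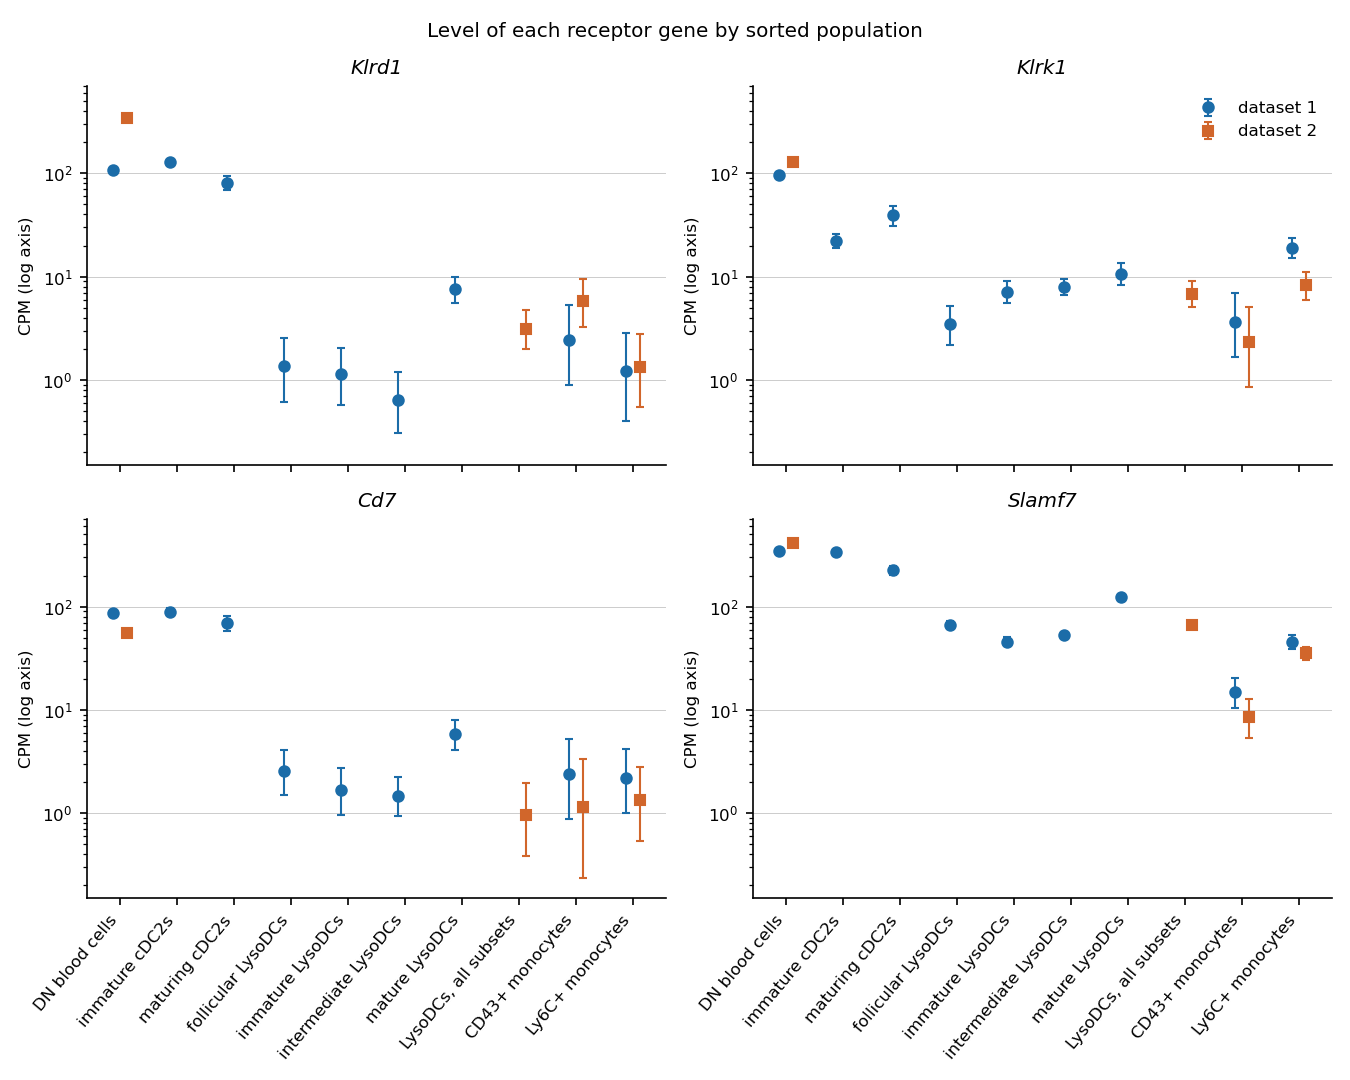
CPM (log axis) of each gene in every population, with circles for dataset 1, squares for dataset 2 and bars for exact 95% Poisson intervals. Klrd1 and Cd7 are high in DN cells (Klrd1 107 and 344 CPM) and in cDC2s (127 CPM in immature cDC2s) and under 10 CPM elsewhere, while Slamf7 lies between 8.47 and 413 CPM over all populations.

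DN cells of the datasets differed from each other. Those of dataset 2 were CCR2+ and CCR2- fractions in separate libraries, summed here, while those of dataset 1 were in 1 library. The mix of these fractions and the library cannot be told apart from dataset. The DN level of dataset 2 over that of dataset 1 was 3.2 (3.00–3.41) for Klrd1, 1.33 for Klrk1, 1.19 for Slamf7 and 0.632 for Cd7, so Cd7 alone was lower in dataset 2. The 5 Ly6C-high monocyte markers summed to 778 CPM in DN cells of dataset 2 and 1340 CPM in those of dataset 1, with Ly6c2 at 11 and 116 CPM. The 6 CD43-high monocyte markers summed to 151 and 291 CPM, with Ace at 25 and 97.7 CPM, while Cd300e of that list was higher in dataset 2, at 16.3 and 8.71 CPM. Their part in the difference was not tested. C1qa, a macrophage gene of the patch cells, was at 66.8 CPM in DN cells of dataset 2 and 454 CPM in those of dataset 1, and at 452 to 532 CPM in the monocytes that share the library of dataset 1. Those monocytes carried at most 2.42 CPM of Klrd1 and Cd7.

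In the patch, immature cDC2s carried Cd7 and Slamf7 at levels close to those of DN cells, more Klrd1 and less Klrk1. Klrd1 had 107 CPM in DN cells and 127 CPM (120–136) in immature cDC2s of the same library, Cd7 87.2 and 89.3 CPM, and Slamf7 346 and 338 CPM. The ratios of DN cells to immature cDC2s were 0.843 (0.771–0.920) for Klrd1, 0.976 (0.882–1.08) for Cd7 and 1.03 (0.974–1.08) for Slamf7, and the intervals of Cd7 and Slamf7 included 1. Klrk1 differed, at 96.3 CPM in DN cells and 22.1 CPM (18.9–25.6) in immature cDC2s, a ratio of 4.36 (3.70–5.17). Maturing cDC2s had 80.8 CPM of Klrd1, 39.2 CPM of Klrk1, 69.5 CPM of Cd7 and 224 CPM of Slamf7. Relative to immature cDC2s these were 0.634, 1.78, 0.779 and 0.662 times as high, with Klrk1 alone higher in the maturing cells. The ratios of DN cells to maturing cDC2s were 1.33 for Klrd1, 2.46 for Klrk1, 1.25 for Cd7 and 1.55 for Slamf7, all with intervals above 1. The 14 NK markers moved the same way as Klrk1 between the cDC2s, at a summed 95 CPM in maturing and 14.3 CPM in immature cDC2s (6 and 7 of 14 at 0), where 136 UMIs of Gzma came from 2 maturing cells. Their part in the Klrk1 difference was not tested. Cd209a, a lectin gene that the DN cells carried at 511 and 747 CPM, was at 35.2 CPM in maturing cDC2s and 10.5 CPM in immature cDC2s.

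LysoDCs were low in 3 of the 4 genes. Klrd1 had 1.35 CPM in the follicular subset, 1.15 CPM in the immature one, 0.643 CPM in the intermediate one and 7.54 CPM (5.56–10.0) in the mature one. The mature subset was 11.7 times the intermediate one for Klrd1, 3.93 times for Cd7, 2.29 times for Slamf7 and 1.35 times (0.99–1.83) for Klrk1. For Klrk1 the intervals of the 2 subsets overlapped. Klrk1 had 3.45, 7.10, 7.90 and 10.7 CPM from follicular to mature LysoDCs, Cd7 had 2.55, 1.67, 1.48 and 5.81 CPM, and Slamf7 had 66.4, 45.7, 53.5 and 123 CPM in the same order. Mature LysoDCs thus had the highest value of the 4 subsets for each gene. The summed markers of NK cells, cDC2s and precursors, innate lymphoid cells and both monocyte types were highest there too. Those of T cells, B cells, plasmacytoid dendritic cells and cDC1s were not. T cell markers had 17.5 CPM in immature and 9.58 CPM in mature LysoDCs. B cell markers had 283 CPM in follicular and 235 CPM in mature ones. The 14 NK markers summed to 0.899, 9.82, 2.57 and 21.2 CPM from follicular to mature LysoDCs (10, 7, 8 and 6 of 14 at 0). In mature LysoDCs 96 UMIs of Gzma from 1 cell made most of that sum. The 6 cDC2 and precursor markers summed to 18.4, 21.4, 22.4 and 57.3 CPM (0 of 6 at 0 in each). The part of such markers in the higher values was not tested. In dataset 2 LysoDCs of all subsets had 3.14 CPM of Klrd1, 6.82 of Klrk1, 0.955 of Cd7 and 66.5 CPM of Slamf7. With 1 sum per subset there is no test of these differences.

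In order of level in dataset 1, Klrd1 ran from immature cDC2s through DN cells, maturing cDC2s and mature LysoDCs to the other LysoDCs and the monocytes, whose intervals overlapped. Klrk1 ran from DN cells through maturing cDC2s to immature cDC2s and Ly6C+ monocytes, which overlapped, and the LysoDC subsets and CD43+ monocytes lay below them. Cd7 had overlapping intervals in neighbours of the order from immature cDC2s over DN cells to maturing cDC2s, with mature LysoDCs next. Slamf7 was highest in DN cells and immature cDC2s, which overlapped, and lowest in CD43+ monocytes. In dataset 2 DN cells came first for each gene.

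The contrasts without DN cells allow a test, with 1 sum per dataset in each population. The DN sums stay in the same fit, so they still enter the spread and the dataset term of each gene. CD43+ and Ly6C+ monocytes differed in Slamf7 and, less firmly, in Klrk1. Slamf7 was lower in CD43+ monocytes by a log2 fold change of -1.99 ± 0.26 (SE), and Klrk1 by -2.36 ± 0.58. The adjusted p from edgeR's quasi-likelihood test was 0.000385 for Slamf7 and 0.0261 for Klrk1, and both were lower in CD43+ monocytes in each dataset. The Klrk1 call was lost without the CD43+ sum of dataset 1 (edgeR adjusted p = 0.140) or dataset 2 (0.219). Klrd1 at 1.48 ± 0.64 and Cd7 at -0.19 ± 0.50 did not pass (edgeR adjusted p = 0.122 and 0.840). Among all genes tested, 29.7% passed in this contrast (14.4% higher and 15.3% lower).

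LysoDCs of all subsets, set against the mean of both monocyte populations, were higher in Slamf7 by 1.79 ± 0.18 on the log2 scale (edgeR adjusted p = 1.46e-05). Klrd1 at 0.62 ± 0.40, Klrk1 at 0.38 ± 0.40 and Cd7 at 0.25 ± 0.30 did not pass (edgeR adjusted p = 0.215, 0.456 and 0.498). In this contrast 58% of all genes tested passed (30.2% higher and 27.8% lower), so 1 of 4 is no excess. Leaving out the LysoDCs of dataset 2 brought Klrd1 past the threshold (edgeR adjusted p = 0.0213), and leaving out the Ly6C+ monocytes of dataset 1 did so for Klrk1 (0.0435). The tissue digestion of the patch cells goes with this contrast and cannot be told apart from it.

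Within the DN population the genes were found in part of the cells. Before any correction for depth, a Klrd1 UMI was found in 27.5% of DN cells of dataset 1 and 67.1% of dataset 2, a Klrk1 UMI in 28.4% and 38.5%, a Cd7 UMI in 19.1% and 18.6%, and a Slamf7 UMI in 64.9% and 79.2%. Cells were then thinned to 2000 UMIs each, which left 2085 and 4839 DN cells. Thinned shares of DN cells in datasets 1 and 2 were 15.2% and 44.1% for Klrd1, 15.8% and 19.4% for Klrk1, 11.1% and 8.84% for Cd7, and 43.9% and 53.1% for Slamf7. At the same depth Klrd1 was found in 0.506% and 0.769% of CD43+ monocytes and in 0.112% and 0.232% of Ly6C+ monocytes, populations that hold little Klrd1 in sum. Cd7 was in at most 0.337% of either. Klrk1 was in 3.03% and 1.74% of Ly6C+ monocytes, and Slamf7 in 7.86% and 6.62%.

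None of the 4 genes was found in 43.1% of thinned DN cells of dataset 1 and 22.3% of those of dataset 2. Cells with exactly 1 gene were 33.9% and 39.1%, with 2 genes 17.3% and 29.8%, with 3 genes 5.37% and 8.29%, and with all 4 genes 0.384% and 0.475%. In the library that holds both, 43.1% of DN cells and 36.1% of immature cDC2s had none. In CD43+ monocytes 97.1% and 97.7% had none, and in Ly6C+ monocytes 89.1% and 91.3%. Most DN cells with a receptor RNA thus showed 1 or 2 of the 4 at this depth.

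**Figure D2:**
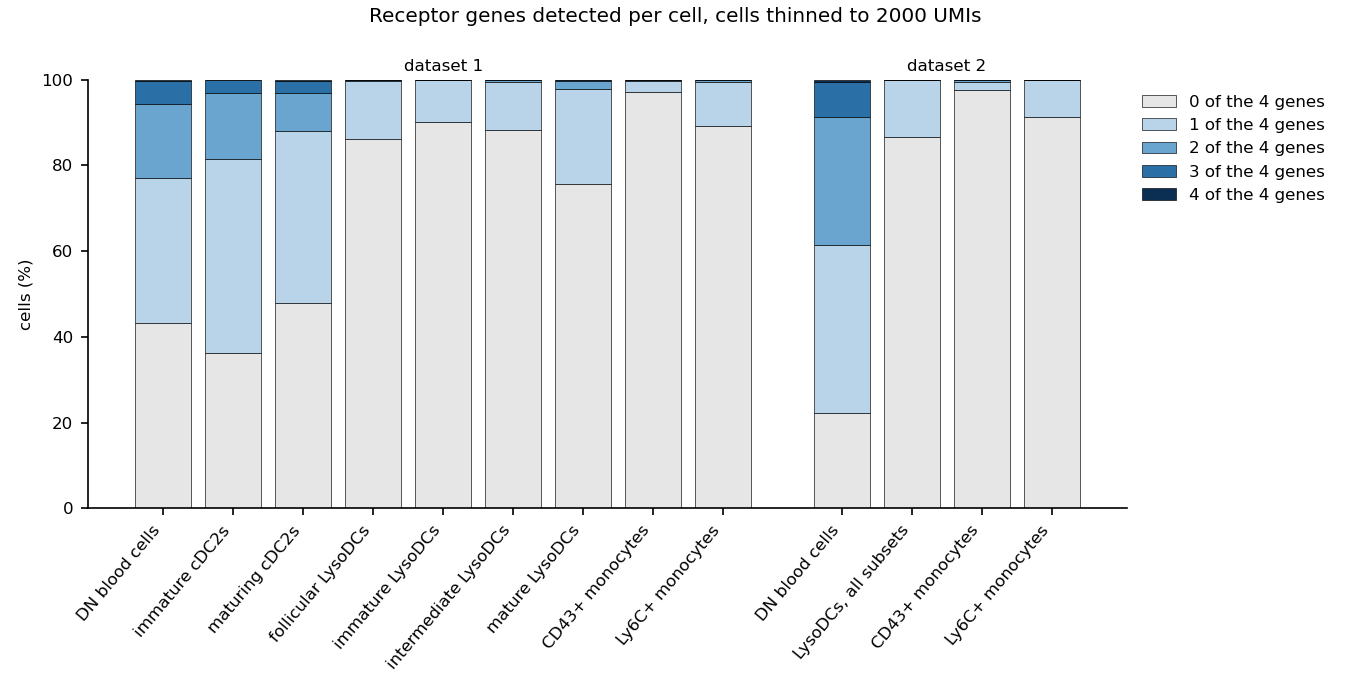
Percent of cells with 0 to 4 of the 4 genes detected, at 2000 UMIs per cell, as stacked bars per population and dataset. No gene was found in 43.1% and 22.3% of DN cells, against over 89% of cells in each monocyte population.

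Cd209a, a lectin gene of the DC-SIGN family, was set against each receptor gene cell by cell. In dataset 1 each of the 4 was found more often in DN cells with a Cd209a UMI than in those without one. Klrd1 was in 21.0% of Cd209a-positive and 9.61% of Cd209a-negative cells, Klrk1 in 23% and 9.05%, Cd7 in 14.1% and 8.30%, and Slamf7 in 54.5% and 34.0%. In dataset 2 the differences were smaller for each gene. Klrd1 was in 46.6% of Cd209a-positive and 40.1% of Cd209a-negative cells, Klrk1 in 22.7% and 14.0%, and Slamf7 in 57.7% and 45.4%. Cd7 was in 8.85% of Cd209a-positive and 8.84% of Cd209a-negative cells of dataset 2, which gives no difference. Read from the other side, Cd209a was in 70.6% of Klrk1-positive and 44.4% of Klrk1-negative cells of dataset 1, and in 72.8% and 59.6% in dataset 2. Cells of 1 pool are not replicates, so no test is given.

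The receptor genes did not climb evenly with Cd209a. With 0, 1, 2 and 3 or more Cd209a UMIs, Klrk1 was in 9.05%, 23.7%, 21.3% and 23.5% of DN cells of dataset 1, and in 14.0%, 21.1%, 20.9% and 26.4% in dataset 2. Klrd1 was in 9.61%, 21.0%, 18.4% and 23.5%, and in 40.1%, 47.1%, 43.7% and 48.4%. For both genes the largest step lay between 0 and 1 Cd209a UMI. From 1 UMI on, the intervals of neighbouring classes overlapped, also where both genes rose from 2 to 3 or more in dataset 2. Slamf7 stood at 34.0%, 54.5%, 52.1% and 56.7%, and at 45.4%, 56.0%, 57.7% and 59.9%. Cd7 had its highest share at 1 Cd209a UMI in both datasets, with 16.5% in dataset 1 and 10.3% in dataset 2. Its intervals overlapped those at 2 UMIs in both datasets and that at 0 UMIs in dataset 2, so no peak is shown. At 3 or more UMIs Cd7 stood at 12.4% and 6.83%.

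**Figure D3:**
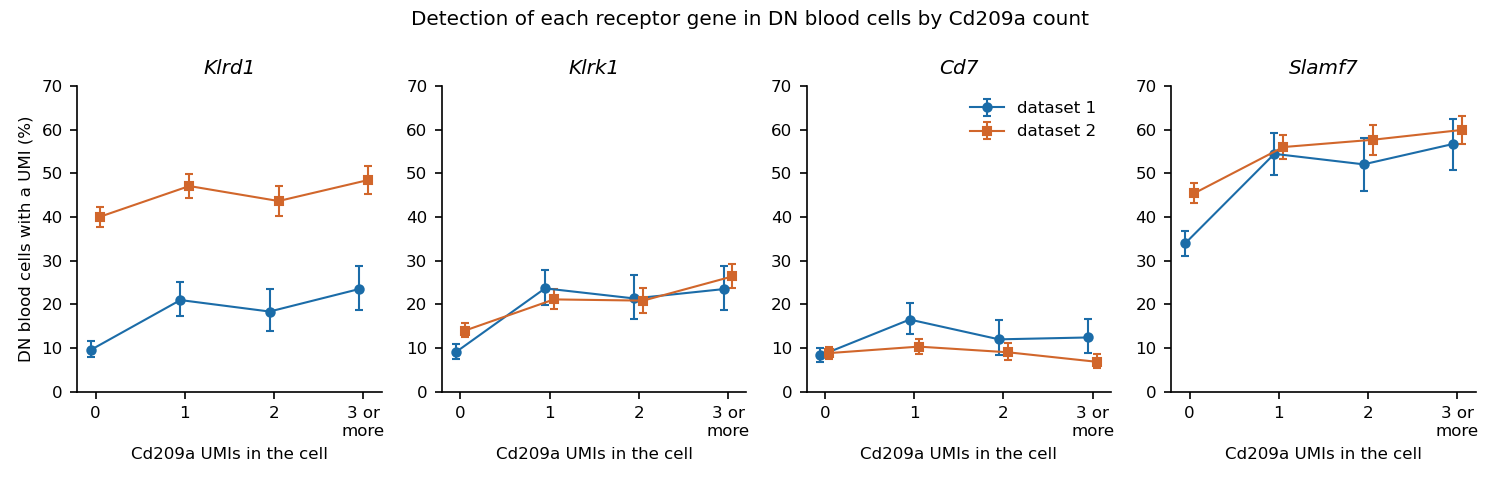
Percent of DN cells with a UMI of each gene (vertical axis) by the number of Cd209a UMIs in the cell (horizontal axis), at 2000 UMIs per cell, with exact binomial 95% intervals. Klrk1 is in 9.05% of Cd209a-negative and 23.5% of cells with 3 or more Cd209a UMIs in dataset 1, while Cd7 in dataset 2 is lowest, at 6.83%, at the high end.

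The 4 genes were also set against each other in DN cells. In 11 of 12 pairings over both datasets, a gene was in more of the cells positive for the other than of those negative. That count includes Cd7 with Slamf7 in dataset 2, at 0.404 percentage points, which is close to no difference. The same share was not worked out for other genes, so the count does not set these 4 apart. Klrd1 was in 31.9% of Cd7-positive and 13.1% of Cd7-negative DN cells of dataset 1, and in 53.3% and 43.2% in dataset 2. Klrd1 was in 25.2% of Klrk1-positive and 13.3% of Klrk1-negative cells of dataset 1, and in 51.4% and 42.4% in dataset 2. The exception was Klrk1 with Cd7 in dataset 2, where Klrk1 was in 18.9% of Cd7-positive and 19.5% of Cd7-negative cells. In immature cDC2s Klrd1 was likewise found in more of the Cd7-positive cells, 26.7% against 17.1% of the Cd7-negative ones. Ccr2, the chemokine receptor gene of Ly6C+ monocytes, was set against the same genes. Cd7 was in 10.5% of Ccr2-positive and 12.9% of Ccr2-negative DN cells of dataset 1, and in 7.72% and 10.2% in dataset 2, lower with Ccr2 in both. Klrk1 was in 15.7% and 16.3% in dataset 1, and in 22.0% and 16.4% in dataset 2.

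Other genes differed in detection between receptor-positive and receptor-negative DN cells, and they were in part shared between the receptors. The 3846 genes found in enough DN cells were ranked, for each receptor, by the smaller of their differences in the datasets. Klrk1-positive cells had Cd209a more often by 26.2 and 13.2 percentage points in datasets 1 and 2, Klrd1 by 11.9 and 9.01, the cyclin gene Ccnd1 by 14.4 and 6.77 and the lectin gene Clec10a by 16.3 and 6.34. Slamf7-positive cells also led with Cd209a, at 20.8 and 11.6 points, and had H2-Oa, the gene of a chain of H2-O, which tunes peptide loading of MHC class II, by 7.60 and 7.59. Klrd1-positive and Cd7-positive cells led with other genes. In Klrd1-positive cells these were S100a11, at 19.6 and 9.80 points, and S100a10, at 23.3 and 9.75, both of small calcium-binding proteins. In Cd7-positive cells Lgals1, the gene of galectin-1, stood at 33.5 and 16.7 points. S100a11 was also among the 5 highest genes in Cd7-positive cells (28.1 and 10.9 points), and S100a10 in Slamf7-positive cells (20.1 and 9.38).

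Other genes were found less often in receptor-positive cells. Mpeg1, the gene of the pore-forming perforin-2, was lower by -25.7 and -12.3 points in Klrd1-positive cells and by -28.0 and -18.1 in Cd7-positive cells. Csf1r, the gene of the CD115 receptor used to sort these cells, was lower by -18.9 and -5.78 points in Klrk1-positive cells. Gngt2, a G-protein subunit gene, was lower by -21.7 and -6.57 points in Klrk1-positive and by -21.7 and -10.1 in Slamf7-positive cells. Lst1 was among the lowest genes for Klrd1 (-26.4 and -10.8 points), Cd7 (-23.9 and -11.7) and Slamf7 (-16.8 and -9.39). Ly6e was among them for Klrk1 (-11.5 and -6.50), Cd7 (-17.7 and -15.2) and Slamf7 (-15.9 and -9.08). These genes were picked by their values, so they describe these cells and are not tested.

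**Figure D4:**
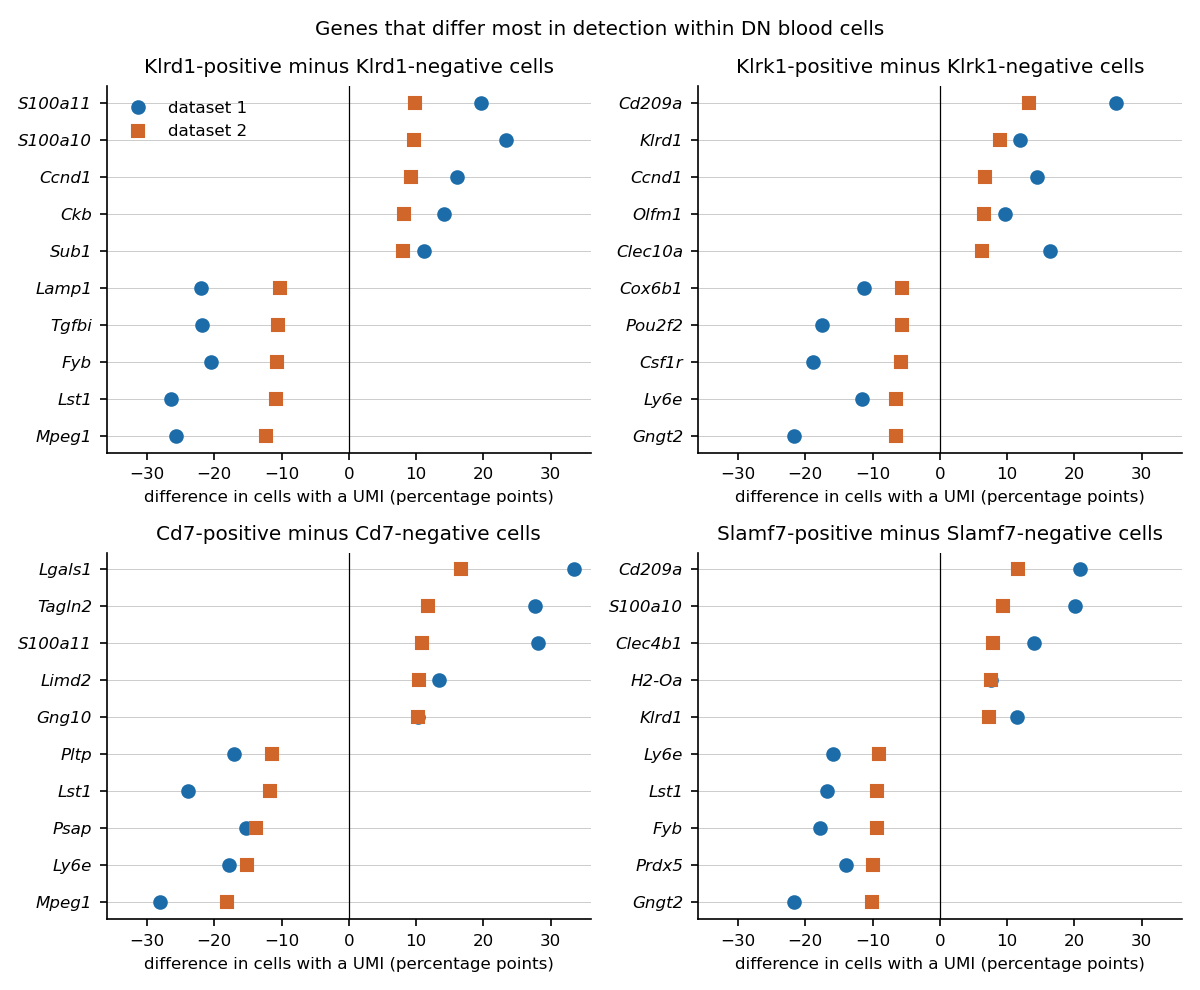
Percentage-point difference in the share of DN cells with a UMI of each gene between receptor-positive and receptor-negative cells at 2000 UMIs per cell, for the 5 highest and 5 lowest genes per receptor, with a mark for each dataset. Cd209a leads for Klrk1 (26.2 and 13.2 points) and Slamf7, S100a11 for Klrd1 and Lgals1 for Cd7 (33.5 and 16.7).

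A receptor needs its partner chains and adaptors, and these were read from lists that, like the 4 genes, were drawn up with earlier results of the data known. CD94 works as a dimer with NKG2A, NKG2C or NKG2E, encoded by Klrc1, Klrc2 and Klrc3. These partners were almost absent. Klrc1 had 1 UMI in DN cells of dataset 1 and 3 in those of dataset 2, Klrc2 had 0 and 7, and Klrc3 had 0 in both, over 2118 and 4971 cells. Klri1, Klri2 and Klre1 encode lectins that pair with each other in mouse NK cells, KLRE1 with either KLRI chain. Klri1 had 1.87 and 6.95 CPM in DN cells of datasets 1 and 2 and 0 UMIs in both monocyte populations, which makes it at least 9.61-fold higher than in CD43+ and at least 17.5-fold higher than in Ly6C+ monocytes (floor of 3 UMIs over both datasets of a monocyte population). Klri2 had 5.29 and 10.8 CPM in DN cells, 1.21 and 0 CPM in CD43+ monocytes and 0 and 0.385 CPM in Ly6C+ monocytes. Klre1 had 3.21 and 6.67 CPM in DN cells, 0 in CD43+ monocytes and 0.245 and 0 CPM in Ly6C+ monocytes. All 3 were low in DN cells as well, and Klri1 was higher in cDC2s, with 41.6 CPM in the maturing and 36.2 CPM in the immature cells.

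Of the 7 genes of the CD94 list, 4 passed the filter on low counts. Klri1, Klri2 and Klre1 passed it only through the DN sums, with at most 1.21 CPM in any other tested sum, so their difference in DN cells is given as values with no count, median or test. H2-T23, the gene of the CD94 ligand Qa-1, was well detected everywhere. It had 216 and 277 CPM in DN cells, 119 and 101 CPM in CD43+ monocytes and 235 and 291 CPM in Ly6C+ monocytes. It rose in DN cells against CD43+ monocytes by 1.38 ± 0.18 (edgeR adjusted p = 0.000232) and did not pass against Ly6C+ monocytes. The 2 contrasts share the DN sums.

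NKG2D, by contrast, had both of its adaptors in every blood population. Hcst, the gene of DAP10, had 59.7 and 50.3 CPM in DN cells, 121 and 117 CPM in CD43+ monocytes and 90.2 and 71.4 CPM in Ly6C+ monocytes. Tyrobp, the gene of DAP12, had 3508 and 2730 CPM in DN cells, 4475 and 3894 CPM in CD43+ monocytes and 4955 and 4424 CPM in Ly6C+ monocytes. The DN cells were thus lowest of the 3 for each adaptor in each dataset. Of 10 tested genes of NKG2D signalling, 6 fell and 0 rose against CD43+ monocytes, and 3 fell and 0 rose against Ly6C+ monocytes, with list medians of -0.45 and -0.25 and a median of all genes of 0.02 in both. Of all genes, 34.7% passed against CD43+ monocytes (17.9% higher and 16.8% lower) and 16.3% against Ly6C+ monocytes (8.05% higher and 8.26% lower). Leaving out 1 sum gave 2 to 6 and 1 to 4 genes that fell. Hcst fell by 0.89 ± 0.12 on the log2 scale and Lcp2, the gene of the scaffold SLP-76, by 1.46 ± 0.15 against CD43+ monocytes (edgeR adjusted p = 0.000333 and 5.76e-05). Against Ly6C+ monocytes Lcp2 changed by -0.90 ± 0.15, Hcst by -0.53 ± 0.12 and Tyrobp by -0.58 ± 0.15 (edgeR adjusted p = 0.00322, 0.0149 and 0.0225). The calls of Hcst and Tyrobp were lost without either Ly6C+ sum (edgeR adjusted p = 0.103 and 0.0908 for Hcst, 0.0620 and 0.238 for Tyrobp) and without the DN sum of dataset 2 (0.110 and 0.166). A simpler hashtag call ended all 3 calls against Ly6C+ monocytes (edgeR adjusted p = 0.0531 for Lcp2, 0.329 for Hcst and 0.348 for Tyrobp). That hashtag call left 43 Ly6C+ monocytes in the sum of dataset 1, against 919 in the main one, here and wherever it is cited below. Of the NKG2D ligand genes 1 could be tested, Ulbp1, which did not pass in DN cells and rose in LysoDCs against monocytes by 1.98 ± 0.27 (edgeR adjusted p = 0.000111).

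Slamf7 signals through the adaptor EAT-2, encoded by Sh2d1b1, and other SLAM receptors use the kinase encoded by Fyn. Sh2d1b1 had 30.4 and 32.0 CPM in DN cells, 116 and 132 CPM in CD43+ monocytes and 14.2 and 17.7 CPM in Ly6C+ monocytes. Fyn had 35.8 and 46.0 CPM in DN cells, 157 and 173 CPM in CD43+ monocytes and 10.3 and 12.3 CPM in Ly6C+ monocytes. The DN cells thus lay between the monocyte populations for both, while their Slamf7 lay above both. Against CD43+ monocytes 8 of 8 tested genes of SLAM signalling fell (5 to 7 without 1 sum), with a median of -0.80, Fyn by 1.79 ± 0.14 and Sh2d1b1 by 1.77 ± 0.19 on the log2 scale (edgeR adjusted p = 1.07e-05 and 5.93e-05). Against Ly6C+ monocytes 2 of 8 rose (1 or 2 without 1 sum) and 0 fell, with a median of 0.09, Fyn by 1.87 ± 0.16 and Sh2d1b1 by 0.98 ± 0.20 (edgeR adjusted p = 0.000119 and 0.00913). The Sh2d1b1 call was lost without the Ly6C+ sum of dataset 1 (edgeR adjusted p = 0.0814), and both calls with a simpler hashtag call (0.0761 for Fyn and 0.0932 for Sh2d1b1). CD43+ monocytes, which had the lowest Slamf7, rose in 6 of 8 of these genes against Ly6C+ monocytes, with Fyn at 3.66 ± 0.17 and Sh2d1b1 at 2.74 ± 0.21 (edgeR adjusted p = 5.36e-07 and 9.82e-06). Of all genes, 16.8% fell in DN cells against CD43+ monocytes and 8.05% rose in them against Ly6C+ monocytes. In CD43+ against Ly6C+ monocytes 14.4% of all genes rose.

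Slamf7 was 1 of several SLAM receptors on DN cells. Of the 7 others tested, 2 rose and 1 fell against Ly6C+ monocytes (median -0.16), where 8.05% of all genes rose and 8.26% fell. Against CD43+ monocytes 2 of the 7 rose and 0 fell (median 0.55), where 17.9% of all genes rose and 16.8% fell. Without 1 sum 1 to 2 rose against Ly6C+ and 1 to 3 against CD43+ monocytes. Cd244a, the gene of 2B4, which NK cells also carry, had 122 and 146 CPM in DN cells, 216 and 183 CPM in CD43+ monocytes and 60.5 and 73.9 CPM in Ly6C+ monocytes. It rose against Ly6C+ monocytes by 1.02 ± 0.18 (edgeR adjusted p = 0.00392), a call lost with a simpler hashtag call (0.0545). Slamf9 had 54.1 and 133 CPM in DN cells, 34.6 and 21.6 CPM in CD43+ monocytes and 5.64 and 6.73 CPM in Ly6C+ monocytes. Its rise of 3.89 ± 0.58 against Ly6C+ monocytes (edgeR adjusted p = 0.0181) was lost without their sum of dataset 1 (0.113) or dataset 2 (0.234). Slamf8, which macrophages carry, rose against CD43+ monocytes by 2.24 ± 0.20 (edgeR adjusted p = 2.67e-05), at 104 and 111 CPM in DN cells and 32.6 and 20.8 CPM in CD43+ monocytes. Cd84 fell against Ly6C+ monocytes by 2.65 ± 0.52 on the log2 scale (edgeR adjusted p = 0.0439), a call lost without their sum of dataset 1 (0.132) or dataset 2 (0.273), or with a simpler hashtag call (0.148). In LysoDCs, where Slamf7 also rose, Slamf6 rose against monocytes by 4.02 ± 0.29 and Slamf8 by 1.84 ± 0.15, and Cd244a fell by 1.07 ± 0.16 on the log2 scale (edgeR adjusted p = 5.27e-06, 2.7e-06 and 0.000189).

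The NK gene complex also holds other lectins, of which 12 of 26 could be tested. Some of these passed the filter through 1 population alone (Clec1a through DN cells, Olr1 through CD43+ monocytes), so no count over the list is given. Klra17, the gene of Ly49Q, had 9.23 and 27.0 CPM in DN cells, 0 and 1.16 CPM in CD43+ monocytes and 0.245 and 0.192 CPM in Ly6C+ monocytes, and 23.1 CPM in immature cDC2s. It rose by 5.13 ± 0.65 and 6.35 ± 0.67 (edgeR adjusted p = 0.000338 and 0.000514), and both calls held under each alternative. Klrb1b, an inhibitory receptor gene of the NKR-P1 family, had 5.81 and 14.0 CPM in DN cells and 0 UMIs in both monocyte populations, at least 20.3-fold higher than in CD43+ and at least 37.0-fold higher than in Ly6C+ monocytes. Its calls (edgeR adjusted p = 0.0171 and 0.0216) were lost without the CD43+ sum of dataset 2 (0.105) and without the Ly6C+ sum of dataset 2 (0.161) or dataset 1 (0.0545), and both with a simpler hashtag call (0.0624 and 0.142).

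**Figure D5:**
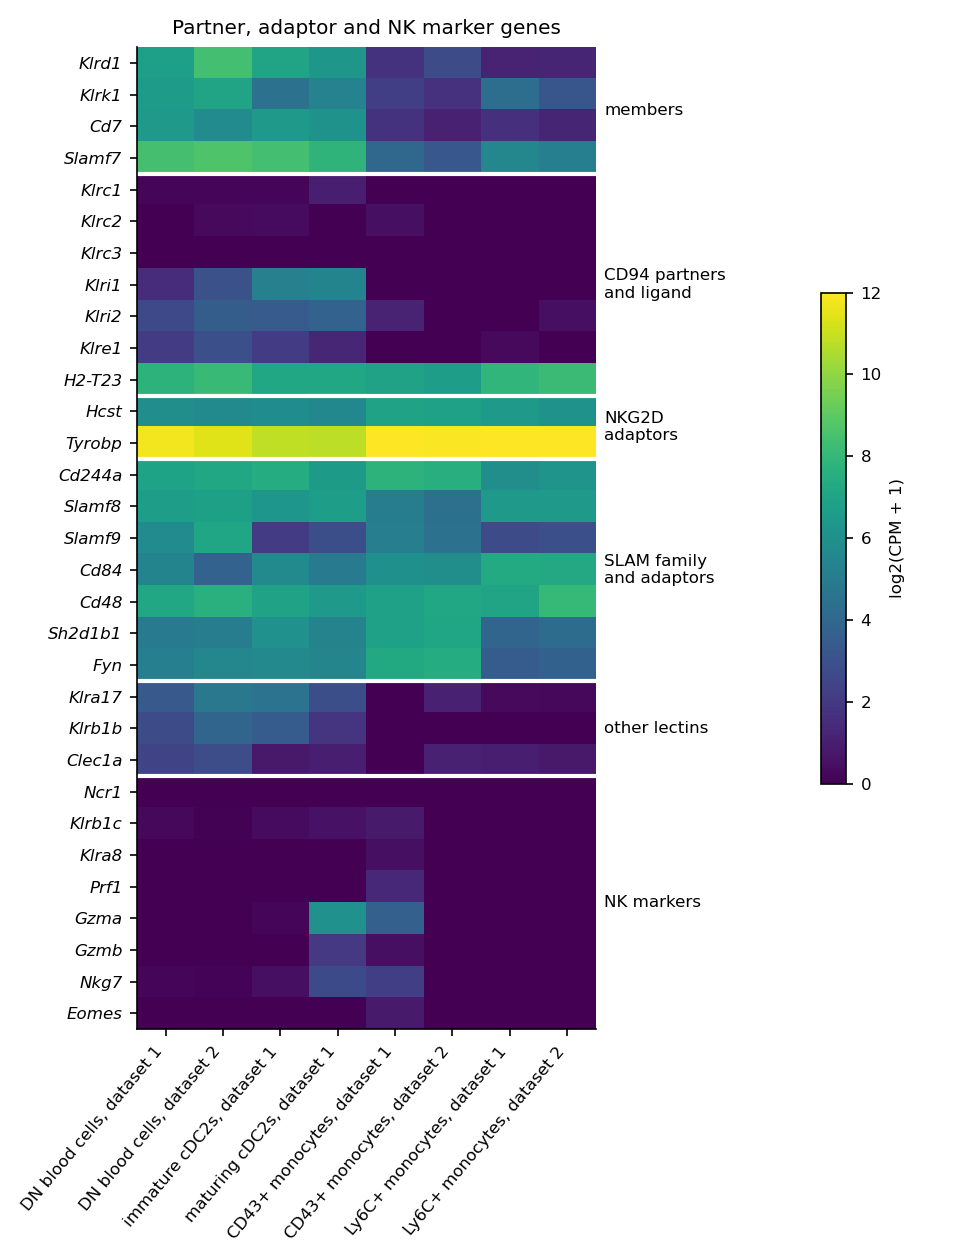
Heatmap of log2(CPM + 1) for the 4 receptors, the CD94 partners and ligand, the NKG2D adaptors, SLAM genes, other lectins and NK markers (rows) in DN cells, cDC2s and monocytes (columns, by dataset). The rows of the CD94 partners Klrc1, Klrc2 and Klrc3 lie at the dark, low end of the colour scale in every column. The row of Klri1 is brightest in cDC2s, where it reaches 41.6 CPM, while Hcst and Tyrobp lie above the dark end in all columns.

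Markers of other cell types were read beside these results. Of the 14 NK markers, Ncr1, Prf1, Gzma, Gzmb and Eomes were among those with 0 UMIs in DN cells of both datasets. The 14 NK markers summed to 9.02 and 17.7 CPM in DN cells, with 8 of 14 at 0 in each, and most of the sum was Klre1 and Klri2, which the CD94 list also holds. In CD43+ monocytes the sum was 24.6 and 0 CPM, where the 29 UMIs of Gzma in dataset 1 came from 1 cell, and in Ly6C+ monocytes 0.245 and 0.577 CPM. Cell by cell, 7 NK markers were counted over all UMIs of DN cells with at least 2000 UMIs: Ncr1, Prf1, Gzma, Gzmb, Eomes, Klrb1c and Nkg7. Klrb1c had 0.207 and 0.0347 CPM in DN cells and Nkg7 0.104 and 0.0695 CPM, and Klre1 and Klri2 were not among the 7. In 0 of 2085 and 0 of 4839 cells 2 or more were found. With the other markers at 0 UMIs, only a cell with both Klrb1c and Nkg7 could count. The result was thus nearly fixed in advance, and it does not limit cells that hold the RNA undetected. Of 6 T cell markers, 2 or more were in 0 cells of dataset 1 and in 7 of 4839 cells (0.145%) of dataset 2. In sum over all DN cells, 0 UMIs of Gzma allows up to 0.311 CPM in dataset 1 and 0.104 CPM in dataset 2. Markers of cDC2s and their precursors rose in DN cells in 5 of 6 against each monocyte population. Of all genes, 17.9% rose in them against CD43+ and 8.05% against Ly6C+ monocytes. Flt3 had 50.9 and 79.0 CPM in DN cells, 1.61 and 1.16 CPM in CD43+ monocytes and 11 and 12.1 CPM in Ly6C+ monocytes. Flt3, the growth-factor receptor gene of dendritic cell precursors, had 106 CPM in immature cDC2s.

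The genes most like each receptor were named by Pearson's r of log2(CPM + 1) over the 13 population sums, among 4135 genes that reached 50 CPM in a sum. The sums share libraries, dataset and depth, so r is a description. Klrd1 was most like Eef1g (0.95), a translation elongation factor gene, and Cd7 (0.95), followed by H2-Ob, Ctnnd2 and Ckb (0.94 each). Cd7 was most like Siglecg (0.97), a sialic-acid-binding lectin gene, Ctnnd2 (0.96), Klrd1 (0.95) and the dendritic cell transcription factor gene Zbtb46 (0.94). Slamf7 was most like Ciita (0.97), the gene of the master regulator of MHC class II, and Rbpj (0.95), which encodes the transcription factor of the Notch pathway. Klrk1 was also most like Rbpj (0.95), followed by Snrpd2, Fcor and Mgl2 (0.93 each). Among the 4 receptors r was 0.95 for Klrd1 with Cd7 and between 0.80 and 0.86 for the 5 other pairs.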

How the data were processed

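Whole-number UMI counts per gene, hashtag and cell barcode, deposited by the authors as 2 matrices with no normalization, were used. The file headers name Cell Ranger 6.0.1, while the submitters' processing notes name Cell Ranger 2.0.0 and mm10. Which populations a hashtag marks was taken from the labels.

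Kept were barcodes (10178 and 10571) with a minimum of 1000 UMIs and of 500 genes, and with mitochondrial RNA up to 10%. HTODemux in Seurat 5.3.0 (positive quantile 0.99) called singlets, and its doublets and negatives were left out. In dataset 2 singlets were 8516, doublets 4572 and negatives 23, and in dataset 1 9069, 2038 and 771. The datasets share 37 barcodes. Counts were summed per population. Shares were compared after thinning cells to 2000 UMIs.

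Fitted were 8 sums (4 populations in each of 2 datasets, 2483174 to 38177761 UMIs) with edgeR 4.0.16: TMM, filterByExpr, dataset as a term, a quasi-likelihood test and Benjamini-Hochberg adjustment over 11474 genes at 0.05. The SE is the log2 fold change over the root of F, an approximation. Each sum is 1 pool of mice, so p-values measure the spread between 2 pools, with 3 residual degrees of freedom. Replicate numbers are dataset numbers: sums of 1 dataset share its run, and in dataset 1 its library, and the dataset term is the pairing. On simulated counts for the contrast of CD43+ and Ly6C+ monocytes, 49% of genes changed 2-fold and 85% of those changed 4-fold were recovered, and 70% and 95% for LysoDCs against monocytes.

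The 4 genes, the gene lists and the rules were chosen with earlier results of these data known. Named were the 4 genes, up to 4 list genes past the threshold per contrast by adjusted p, defining markers of other cell types, and the genes most like each of the 4. Alternatives were DESeq2 1.42.0, other size factors, no filter on low counts, no dataset term, a simpler hashtag call (the top hashtag at least 3 times the next), other cell filters and thinning, and leaving out each sum.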

Additional observations from a re-analysis of the deposited data

Results flagged for a closer look

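Klrk1 with Cd7 differed in sign between the datasets at 2000 UMIs per cell. In dataset 2 Klrk1 was in 18.9% of Cd7-positive and 19.5% of Cd7-negative DN cells, a difference of -0.549 percentage points, and in dataset 1 in 20.3% and 15.3%, a difference of 4.99 points. The difference between the datasets was not tested, and it depended on the depth. Thinned to 1000 UMIs the values were -1.57 points in dataset 2 and -2.64 in dataset 1, and without thinning 3.38 and 10.96.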

How the results depend on the processing

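DESeq2 and other size factors left the direction and call of the 4 genes in the tested contrasts as they were, and each contrast's count within 1.5 times. They did end calls of list genes: DESeq2 those of Clec1a, Il15 and Rora (DN cells against Ly6C+ monocytes), Cd48, Il15ra and Gzma (DN cells against CD43+ monocytes), Ulbp1, Vav1 and Gzma (CD43+ against Ly6C+ monocytes) and Gzma (LysoDCs), and the other size factors that of Irf8 (DN cells against Ly6C+ monocytes). Without the replicate block (the dataset term, the pairing here) DN cells against Ly6C+ monocytes gave 1082 genes in place of 1872, and the other contrasts stayed within 1.5 times. The simpler hashtag call gave 415 genes for DN cells against Ly6C+ monocytes, 2519 (of 3980) against CD43+ monocytes and 1652 (of 3413) for CD43+ against Ly6C+ monocytes. In dataset 1 it left 43 Ly6C+ monocytes, 87 CD43+ monocytes and 1011 DN cells, against 919, 684 and 2118 in the main call. LysoDCs of dataset 2 went from 681 to 2962 cells. The lost calls thus go with smaller blood sums in dataset 1, whose part was not tested. The same hashtag call also brought Klrd1 (log2 fold change 1.99, edgeR adjusted p = 0.0138) and Klrk1 (1.19, 0.00538) past the threshold in LysoDCs against monocytes. Without a filter on low counts the median log2 fold change of all genes moved to 0.15 and 0.19 for DN cells against Ly6C+ and CD43+ monocytes and to 0.30 for LysoDCs, and Klrd1 passed in CD43+ against Ly6C+ monocytes (1.46, 0.0208), and with cells of at least 2000 UMIs Cd7 turned to 0.060 (0.946) there. The cause was not tested.

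Leaving out each sum gave 383 to 2328 genes for DN cells against Ly6C+ monocytes, 1777 to 3986 against CD43+ monocytes, 1433 to 2512 for CD43+ against Ly6C+ monocytes and 4816 to 6219 (of 6654) for LysoDCs against monocytes. In CD43+ against Ly6C+ monocytes the log2 fold changes lay at -2.92 to -1.67 for Klrk1, 0.73 to 1.86 for Klrd1, -0.42 to -0.07 for Cd7 and -2.47 to -1.63 for Slamf7. In LysoDCs against monocytes they lay at -0.022 to 1.09 for Klrd1, 0.13 to 0.76 for Klrk1, -0.42 to 0.42 for Cd7 and 1.60 to 2.03 for Slamf7, and Klrd1 and Cd7 were negative without the LysoDC sum of dataset 1.

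DN cells had the highest level of the 3 blood populations for 4 of 4 genes in both datasets under each alternative. Detection was more frequent in Cd209a-positive cells in 7 of 8 comparisons, and Cd7 in dataset 2 showed no difference. Thinned to 1000 UMIs, and with the simpler hashtag call, it was again 7, with Cd7 in dataset 2 lower in Cd209a-positive cells. Among the 4 genes it was 11 of 12, then 10 when thinned to 1000 UMIs, 12 without thinning and 10 with the simpler hashtag call. These counts were not set beside the share over all genes. Depth limits the shares: at 2000 UMIs per cell, a cell without a UMI of a gene is not shown to lack its RNA.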

Other observations

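DN cells also carried genes of other dendritic and innate lymphoid lists. Il1rl1, the gene of the IL-33 receptor chain ST2, had 8.29 and 13.9 CPM in DN cells of datasets 1 and 2, 0 UMIs in CD43+ monocytes (at least 21.2-fold higher in DN cells) and 0.490 and 0.192 CPM in Ly6C+ monocytes, and 0.130 CPM in immature cDC2s. Clec9a, a receptor gene of cDC1s, had 19.4 and 17.1 CPM in DN cells and 2.47 CPM in immature cDC2s, and at most 1.93 CPM in any monocyte sum. Both genes passed the filter on low counts only through the DN sums, so no test is given.

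Runx3 and Il7r, genes known from lymphoid cells, were higher in immature cDC2s than in DN cells of the same library, where there is no test. Runx3, a transcription factor gene of cytotoxic lymphocytes, had 84.1 CPM in DN cells and 524 CPM in immature cDC2s. It was also high in LysoDCs, at 340 CPM in dataset 1 and 476 CPM in dataset 2. Il7r, the IL-7 receptor gene of lymphoid cells, had 1.24 CPM in DN cells and 43.0 CPM in immature cDC2s. The 10 T cell markers summed to 2.49 CPM in DN cells and 26.9 CPM in immature cDC2s, and their part was not tested.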
